A study of Mus musculus with 12 samples.

Results

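The genes described here are the 5 that encode the intermediate filaments of neurons: Nefl, Nefm and Nefh, the light, medium and heavy neurofilament subunits, Ina, which encodes alpha-internexin, and Prph, which encodes peripherin. They were chosen by symbol, and all 5 were found among the 38924 genes listed for each library. They were measured by RNA sequencing in 12 libraries of whole spinal cord from 8-week-old mice on a B6J.Cg background. C201R is a point mutation in Gars, the gene of glycyl-tRNA synthetase, and the libraries titled C201R carry the genotype tag C201R+/-, against C201R+/+ for those titled WT. The labels name no other allele and no agent in either group. Because no label ties a library to an animal, the p-values are set against the spread among these 12 libraries, which may be technical.

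The labels give the genotype in 2 places, in the sample title and in the library name, and these differ for 4 libraries. The names and titles of libraries 1, 2, 3 and 10 both say C201R, and those of libraries 5, 6, 7 and 8 both say WT. Libraries 4 and 9 are named C201R and titled WT, and libraries 11 and 12 are named WT and titled C201R. The test of each gene was therefore run with 6 C201R and 6 WT libraries by library name, with 6 of each by title, and with the 4 C201R and 4 WT libraries whose labels agree. No library was moved to another group on account of its values.

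Intermediate filaments are rope-like polymers of the cytoskeleton. In large myelinated axons such as those of motor neurons, the light, medium and heavy subunits assemble together with alpha-internexin or peripherin, and the amount of neurofilament sets the axon's calibre. The light subunit is needed for assembly, while the medium and heavy subunits carry long, heavily phosphorylated tails that project from the filament. Peripherin is most abundant in neurons that send axons out of the central nervous system, including motor neurons and sensory ganglion neurons, and alpha-internexin is found mainly in central neurons.

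In the GENCODE M21 annotation of mouse build GRCm38, Nefl (ENSMUSG00000022055) lies on chromosome 14 from 68083863 to 68089095 on the plus strand. Nefm (ENSMUSG00000022054) lies on the minus strand of the same chromosome from 68082590 to 68124846. Nefh (ENSMUSG00000020396) occupies chromosome 11 from 4938754 to 4948064 on the minus strand, Ina (ENSMUSG00000034336) chromosome 19 from 47014698 to 47025327 on the plus strand, and Prph (ENSMUSG00000023484) chromosome 15 from 99055174 to 99058978 on the plus strand. The files' own build is not given in the sources used here, but the lengths of these genes in the files equal, or lie between, those of their GENCODE M21 transcripts.

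The transcripts of the 5 genes share only short identical stretches. The longest run that transcripts of 2 different members share on the coding strand is 35 bases, between Nefm and Prph, and for Nefl and Nefm it is 17 bases.

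Nefl and Nefm also overlap in the genome. The longer of the 2 Nefm transcripts (ENSMUST00000111089, 3680 bases) runs back across Nefl on the opposite strand and shares 1108 exon bases with it, whereas the shorter one (ENSMUST00000022638, 3334 bases) shares 0. The deposited counts of Nefl and Nefm were each whole numbers in 1 of 12 libraries, within 0.015 of a read, while their sum was whole in 12 of 12, so reads had been divided between this pair of genes. From the mean Nefm transcript length in the files, between 0.0809% and 0.197% of Nefm transcripts were assigned to the longer form. Nefh and Prph counts were whole in 12 of 12 libraries. Ina counts were whole in 0 of 12, and the gene with which Ina shares reads was not looked up. Whether strand was used in counting is not given in the sources used here, so reads from the overlap of Nefl and Nefm cannot be told apart by gene.

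Libraries held between 27175421 and 38271405 counts assigned to genes. Expected counts ran from 50403 to 71300 for Nefl, from 54393 to 81845 for Nefm, from 30143 to 43524 for Nefh, from 9130 to 13882 for Ina and from 1460 to 3152 for Prph, so counting error was small beside the spread between libraries for each gene. Gars, the mutated gene, averaged 149.8 ± 4.2 CPM (counts per TMM-scaled library total) in libraries named C201R and 136.4 ± 4.3 CPM in those named WT (SD, n = 6 each), which for a point mutation does not check the labels. Xist, the X-inactivation transcript of female cells, disagreed with the titled sex in 6 of 12 libraries (2, 3, 4, 5, 6 and 8). The mitochondrial transcript mt-Atp8 split the libraries into 6 at 41138 to 53782 TPM (libraries 1, 2, 3, 5, 7 and 8) and 6 at 16698 to 24359 TPM, with 3 named C201R and 3 named WT in each set. In the sections below, counts were tested with edgeR's quasi-likelihood test across all genes, levels within a library are TPM, transcript abundance corrected for length and scaled to a fixed sum, and a gene is called when its Benjamini-Hochberg adjusted p is under 0.05.

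Neurofilament transcripts were among the most abundant of the cord. By mean TPM in the libraries named WT, Nefm ranked 36 and Nefl 45 of 38924 genes, Nefh 124, Ina 616 and Prph 1715. In those libraries Nefm made up 39.9% ± 0.3 of the summed TPM of the 5 genes, Nefl 34.2% ± 0.6, Nefh 17.8% ± 0.4, Ina 5.66% ± 0.39 and Prph 2.41% ± 0.48 (SD, n = 6). The order was the same within each of the 12 libraries. Nefm and Nefl were the closest neighbours, with a ratio between 1.04 and 1.2, and their ranges over the libraries named WT overlapped.

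By library name, the 3 neurofilament subunits were lower in C201R libraries, by about the same proportion, and Ina was not. Nefl, Nefm and Nefh were called lower, and the 6 libraries named C201R lay below all 6 named WT for each. Of all 17765 genes tested, 0.715% were called, 0.546% were called lower in C201R, and 1.05% had all C201R libraries below all WT libraries; each of these held for 3 of the 5 members. The median difference over all genes tested was 0.00 on the log2 scale.

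Nefl, the subunit that filaments cannot assemble without, ranged from 909 to 1019 TPM with a median of 995 in libraries named C201R, against 1170 to 1341 with a median of 1234 TPM in those named WT. Its log2 difference, C201R minus WT, was -0.37 ± 0.03 (SE, edgeR adjusted p = 0.000144), so Nefl fell by 22.4%, with a 95% interval from -26.2% to -18.5%. Nefm, the medium subunit and the most abundant of the 5 in each library, ranged from 978 to 1160 TPM with a median of 1101 in C201R libraries and from 1325 to 1599 TPM with a median of 1441 in WT libraries. It fell by 26.1% (95% interval -30.8% to -20.9%), which is -0.44 ± 0.04 on the log2 scale (SE, edgeR adjusted p = 0.000482). Both genes separated the named groups without overlap, the highest C201R library being library 9 and the lowest WT library being library 8 in each case.

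Nefh, the heavy subunit, ranged from 451 to 563 TPM with a median of 506 in libraries named C201R and from 587 to 724 TPM with a median of 642 in those named WT. It fell by 22.5% (95% interval -28.2% to -16.4%), which is -0.37 ± 0.05 on the log2 scale (SE, edgeR adjusted p = 0.00406). The groups did not overlap here either, although libraries 9 and 8 lay close, at 563 TPM in the first, named C201R, and 587 TPM in the second, named WT. The intervals of the 3 subunits overlapped one another.

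**Figure D1:**
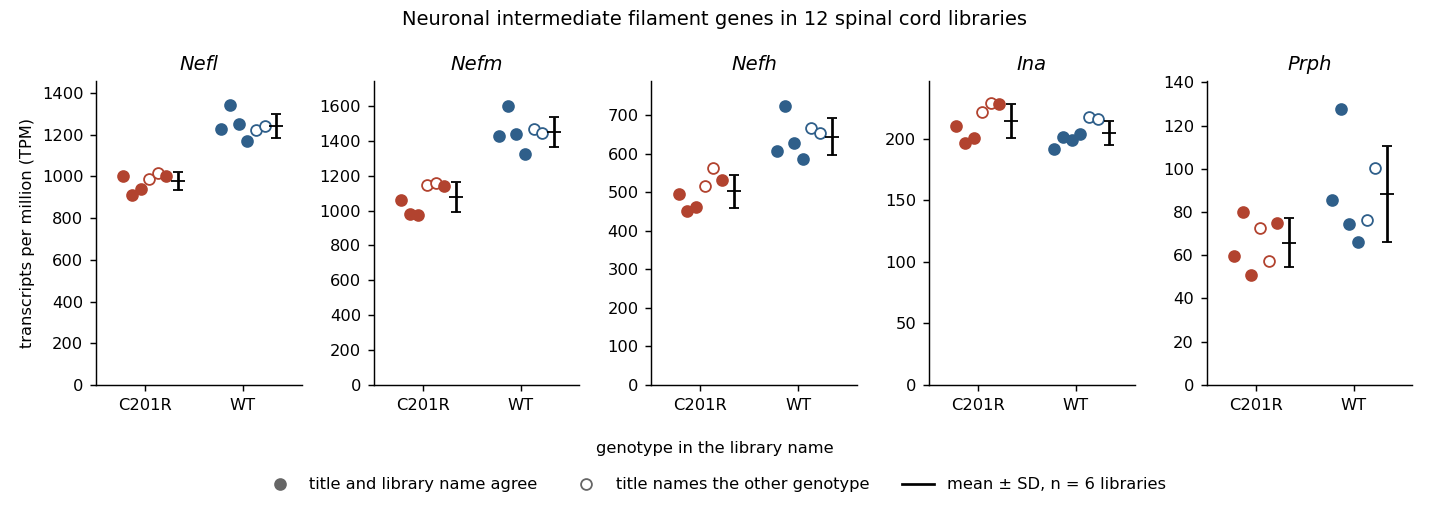
TPM of the 5 neuronal intermediate filament genes in 12 spinal cord libraries (vertical axes from 0), grouped by the genotype in the library name, C201R left of WT; filled points are libraries whose title agrees, open points those whose title names the other genotype, and bars give mean ± SD (n = 6 each). All 6 C201R points lie below all 6 WT points for Nefl, Nefm and Nefh, while the groups overlap for Ina and Prph.

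Ina, the alpha-internexin gene, ranged from 196.8 to 229.2 TPM with a median of 216.3 in libraries named C201R and from 192.3 to 217.5 TPM with a median of 203.0 in those named WT. Its log2 difference of 0.04 ± 0.03 did not pass the test (SE, edgeR adjusted p = 0.678), and the 95% interval ran from -2.14% to 8.06%, which does not reach the size of the change in the neurofilament subunits. The groups overlapped. Ina varied with the mt-Atp8 sets, at 192.3 to 210.9 TPM in the 6 libraries with more of that transcript and 202.0 to 229.2 TPM in the 6 with less. Nefm and Nefh were also higher in the set with less of it, within each named group and without overlap. Nefh was 451 to 496 TPM with more mt-Atp8 and 517 to 563 with less in C201R libraries. In WT libraries it was 587 to 629 TPM with more and 654 to 724 with less. For Nefl the sets overlapped within each named group. The part of that split in the values of these genes was not tested.

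Prph, the peripherin gene, ranged from 50.8 to 79.9 TPM with a median of 66.2 in libraries named C201R, against 66.4 to 127.6 TPM with a median of 80.8 in those named WT. The log2 difference of -0.36 ± 0.16 was as large as those of Nefl and Nefh but did not pass the test (SE, edgeR adjusted p = 0.369). Its interval ran from -38.9% to -1.05%, several times wider than theirs, and the groups overlapped. Leaving out 1 library at a time gave values from -0.44 to -0.26.

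Prph was higher in libraries with more sensory ganglion transcripts, whose amount differed between libraries within each genotype. The summed level of 9 sensory ganglion marker genes ran from 7.50 to 77.0 CPM in libraries named C201R and from 6.39 to 94.7 CPM in those named WT, with up to 2 of the 9 markers at 0 in a library. Its most abundant markers were Scn10a, a sodium channel of pain-sensing neurons, at 7.57 ± 9.81 CPM in C201R and 8.40 ± 12.60 CPM in WT libraries, and Avil, an actin-binding protein of sensory neurons, at 4.73 ± 5.03 CPM in C201R and 6.18 ± 8.17 CPM in WT libraries (SD, n = 6 each). Both genes had lower means in C201R, yet in the fit with titled sex as a term all 9 markers had log2 differences above 0. These were C201R minus WT by library name, with a median of 0.51, and 0 of the 9 were called. Titled sex disagreed with Xist in several libraries, and the signs of the 9 markers without that term are not given here. In the 6 libraries under 10 CPM of these markers, Prph was 59.9, 50.8 and 57.2 TPM in libraries 1, 3 and 9, named C201R, against 74.5, 66.4 and 76.2 TPM in libraries 7, 8 and 11, named WT. In the 6 libraries above 10 CPM it was 79.9, 72.6 and 74.7 TPM in libraries 2, 4 and 10, named C201R, against 85.5, 127.6 and 100.2 TPM in libraries 5, 6 and 12, named WT. The named groups did not overlap in either set of 6. The cut at 10 CPM was chosen after seeing the data, and the share of all genes that separate in these small sets is not given here. With each set fitted alone, Prph was not called by edgeR in either.

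**Figure D2:**
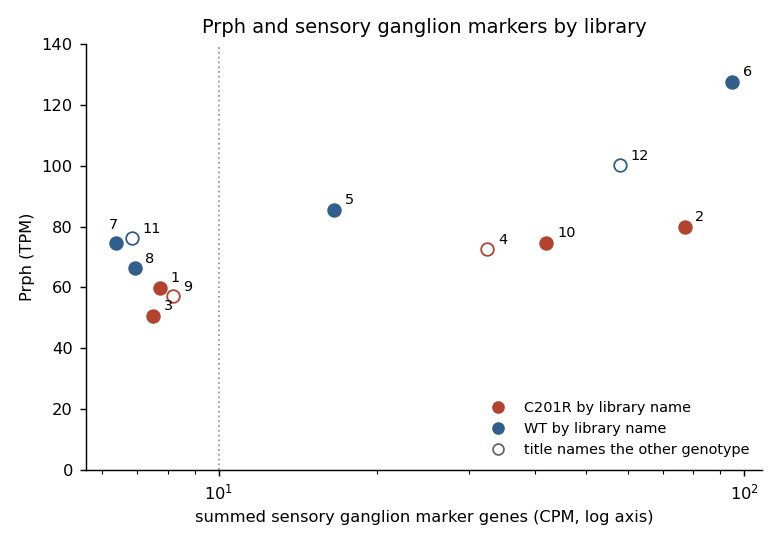
Prph in TPM (vertical axis) against the summed level of 9 sensory ganglion marker genes in CPM (horizontal log axis) in each of the 12 libraries, with library numbers; the dotted line marks 10 CPM. On each side of the line the 3 libraries named C201R lie below the 3 named WT. Prph is higher to the right, up to 127.6 TPM in library 6. The cut was chosen after seeing the data, and Prph was not called on either side fitted alone.

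With the log2 level of the ganglion markers as a term in the fit, a setting chosen after seeing the data, Prph differed by -0.44 ± 0.05 on the log2 scale (SE, edgeR adjusted p = 0.00106). Under it Nefl, Nefm and Nefh remained called, so that 4 of the 5 genes were called lower in C201R by library name. The share of all genes called under this setting is not given here, so this count has no background beside it. In the 6 libraries under 10 CPM fitted alone, Nefl differed by -0.32 ± 0.04 and Nefm by -0.42 ± 0.05 (SE, edgeR adjusted p = 0.0819 for each), and 0 of the 5 genes were called, with 7 called among all 18249 genes tested.

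The ratios between subunits within a library, which do not depend on its depth, set Ina apart from the neurofilament genes. Nefl over Ina averaged 4.56 ± 0.15 in libraries named C201R and 6.07 ± 0.42 in those named WT. For Nefm over Ina the means were 5.02 ± 0.11 in C201R and 7.08 ± 0.53 in WT libraries, and for Nefh over Ina 2.34 ± 0.06 in C201R and 3.15 ± 0.24 in WT libraries (SD, n = 6 each). Each of these ratios separated the named groups without overlap, and each gave p = 0.00216 in an exact permutation test over every split of the 12 libraries, two-sided, which is the smallest p these libraries allow, and 0.00722 adjusted over the 10 pairs of genes. Ina made up 7.56% ± 0.09 of the summed TPM of the 5 genes in C201R libraries, against 5.66% ± 0.39 in WT libraries.

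Among the neurofilament subunits themselves the ratios differed little between the named groups. Nefh over Nefl was 0.515 ± 0.025 in libraries named C201R and 0.519 ± 0.022 in those named WT (exact permutation test, adjusted p = 0.832). It did differ between the mt-Atp8 sets, in both named groups. The ratio was 0.491 to 0.502 in the libraries with more of that transcript and 0.523 to 0.553 in those with less, without overlap. Nefh over Nefm was 0.467 ± 0.012 in C201R and 0.445 ± 0.011 in WT libraries, a log2 difference of 0.07 that passed the test (exact permutation test, adjusted p = 0.0217) although the groups overlapped, from 0.450 to 0.486 in C201R and 0.426 to 0.455 in WT. Nefm over Nefl was 1.10 ± 0.05 in C201R and 1.17 ± 0.03 in WT libraries and narrowly missed the threshold (exact permutation test, adjusted p = 0.0505). That ratio also differed between the mt-Atp8 sets within C201R, at 1.06, 1.08 and 1.04 in libraries 1, 2 and 3 and 1.16, 1.14 and 1.14 in libraries 4, 9 and 10. Its 2 genes are those between which reads were divided in counting.

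Against Prph, 0 of 4 ratios passed. Ina over Prph was 3.35 ± 0.60 in libraries named C201R and 2.43 ± 0.54 in those named WT (exact permutation test, adjusted p = 0.0505), and the 3 neurofilament genes over Prph had adjusted p from 0.832 to 0.890 in the same test. The log2 difference of these 3 ratios lay between -0.02 and 0.06, with an SD between libraries of 0.26 to 0.29.

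**Figure D3:**
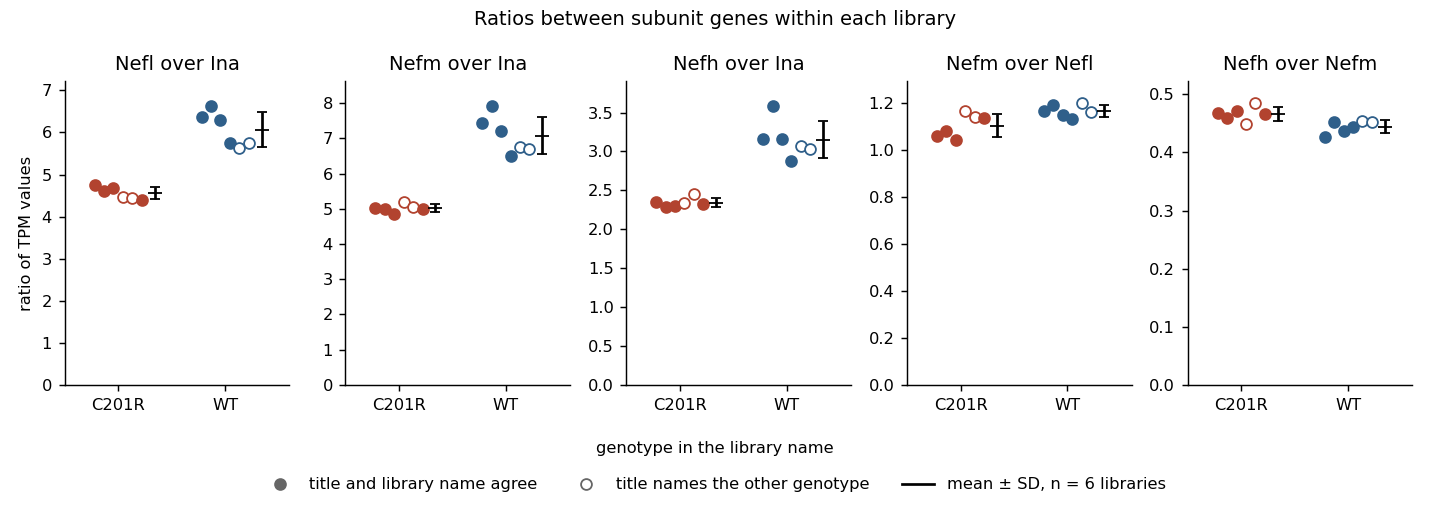
Ratios of TPM values between pairs of subunit genes in each library (vertical axes from 0), by the genotype in the library name, C201R left of WT, with mean ± SD (n = 6 each); open points are libraries whose title names the other genotype. The 3 ratios to Ina are lower in all C201R libraries than in any WT library, with means of 4.56 against 6.07 for Nefl, while Nefm over Nefl and Nefh over Nefm overlap between groups.

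Neurofilament genes are expressed by many neurons, and in a whole-cord sample fewer cells of a type and less RNA per cell cannot be told apart. Markers of neurons in general did not fall. The summed TPM of 12 neuronal marker genes was 7147 ± 325 in libraries named C201R and 7158 ± 248 in those named WT (SD, n = 6 each; exact permutation test, two-sided, p = 0.937), and 0 of the 12 were called. Set against that sum within each library, Nefl differed by -0.34, Nefm by -0.43 and Nefh by -0.36 on the log2 scale (exact permutation test, adjusted p = 0.00361 for each over the 5 members), Prph by -0.41 (adjusted p = 0.0433) and Ina by 0.07 (adjusted p = 0.0244). The Prph call was lost in 8 of the 12 fits that left out 1 library (without libraries 1, 3, 4, 5, 6, 9, 10 or 12), with log2 differences from -0.48 to -0.29, and in the 8 libraries whose labels agree (exact permutation test, adjusted p = 0.171). The Ina call was lost without library 4, in those 8 libraries, and against the mean log2 TPM of the markers (exact permutation test, adjusted p = 0.0514, 0.107 and 0.0931).

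Of 9 motor neuron markers, 2 were called lower and 6 had a log2 difference below 0. Their summed TPM was 138 ± 15 in libraries named C201R and 208 ± 27 in those named WT (SD, n = 6 each), without overlap (exact permutation test, two-sided, p = 0.00217, the smallest p allowed). The marker that differed most in TPM was Calca, the gene of calcitonin gene-related peptide, which sensory ganglion neurons also express; it was named after its values were seen. It had 31.3 ± 16.3 TPM in C201R and 73.6 ± 20.7 TPM in WT libraries, without overlap, but was not called at -1.17 ± 0.34 on the log2 scale (SE, edgeR adjusted p = 0.158). Without Calca, a setting chosen after seeing the data, the other 8 markers summed to 106 ± 3 TPM in C201R and 134 ± 9 TPM in WT libraries, still without overlap (exact permutation test, p = 0.00217), and the log2 difference of the sum was -0.34 in place of -0.59. Chodl, a marker of fast motor neurons, was called lower at 13.1 ± 1.2 CPM in C201R and 34.6 ± 6.5 CPM in WT libraries, or -1.41 ± 0.12 on the log2 scale (SE, edgeR adjusted p = 0.000112). Chat, the acetylcholine-synthesizing enzyme, was called lower at 16.9 ± 1.3 CPM in C201R and 23.4 ± 1.7 CPM in WT libraries, or -0.45 ± 0.06 on the log2 scale (SE, edgeR adjusted p = 0.00431). The other 7, Calca among them, were not called. By CPM the most abundant were Ret, a receptor tyrosine kinase, at 125 ± 6 CPM in C201R and 140 ± 12 CPM in WT libraries, and Slc5a7, the choline transporter, at 80.0 ± 5.2 CPM in C201R and 92.4 ± 9.7 CPM in WT libraries. None of the 9 was at 0 in any library. The tenth listed marker, Slc18a3, was not analysed here.

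Relative to the 9 summed motor neuron markers, the log2 differences were 0.25 for Nefl, 0.16 for Nefm, 0.23 for Nefh and 0.19 for Prph, and did not pass the test (exact permutation test, adjusted p = 0.0649, 0.0996, 0.0722 and 0.0758). These signs rest on Calca. Relative to the other 8 markers the values were -0.01 for Nefl, -0.09 for Nefm, -0.02 for Nefh and -0.07 for Prph (exact permutation test, adjusted p = 0.706, 0.260, 0.706 and 0.706), while leaving out any other single marker kept them above 0. Among those 8, Chodl differed most in TPM, at 10.6 ± 1.0 in C201R and 27.4 ± 4.9 in WT libraries (SD). Mean TPM in C201R was below that in WT for Chodl, Chat, Slc5a7, Isl1 and Ret, but not for Mmp9, Esrrb and Mnx1. The values relative to the 8 markers thus lean on Chodl, and leaving out Calca and Chodl together was not tested. Ina was 0.66 higher relative to the 9 markers and 0.40 higher relative to the 8 without Calca (exact permutation test, adjusted p = 0.0108 for each). The part of motor neuron content in the neurofilament differences was not tested beyond these ratios.

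**Figure D4:**
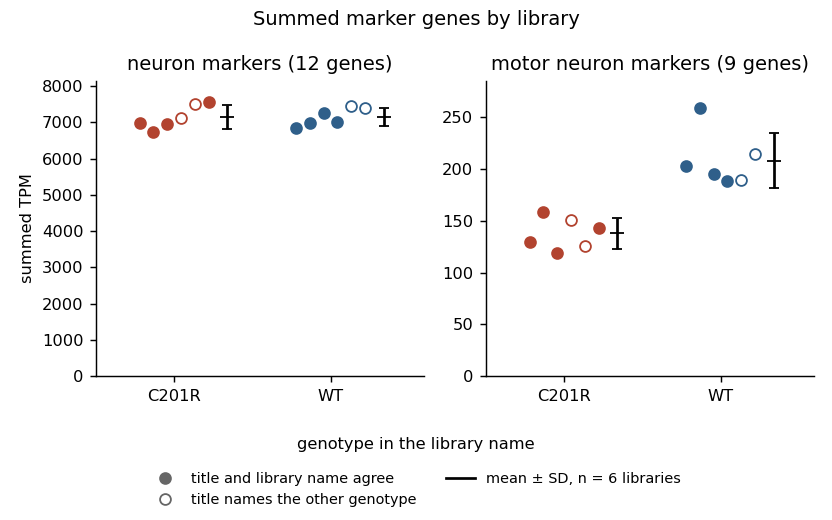
Summed TPM of 12 general neuron markers (left) and 9 motor neuron markers (right) in each library (vertical axes from 0), by the genotype in the library name, C201R left of WT, with mean ± SD (n = 6 each); open points are libraries whose title names the other genotype. The general markers average 7147 in C201R and 7158 TPM in WT libraries, while the motor neuron sums do not overlap.

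Transcripts of other tissues varied widely between libraries, and their summed levels overlapped between the named groups. Skeletal muscle markers (11 genes) summed to 21.6 to 3266 CPM in libraries named C201R and 22.9 to 2667 CPM in those named WT, led by Myh4, a fast myosin, at 259 ± 278 CPM in C201R and 191 ± 267 CPM in WT libraries, and Acta1, skeletal actin, at 162 ± 182 CPM in C201R and 138 ± 161 CPM in WT libraries. Red cell markers (6) summed to 590 to 2986 CPM in C201R and 448 to 1273 CPM in WT libraries, and fat cell markers (6) to 0.963 to 229 CPM in C201R and 0.669 to 11.6 CPM in WT libraries. All 6 tested red cell and all 5 tested fat cell markers had log2 differences above 0, with medians of 0.68 and 3.07 and 0 called. Single libraries led both sums. Fat cell markers reached 229 CPM in library 3 and at most 18.6 CPM in the other libraries named C201R. Red cell markers reached 2986 CPM in library 2 and 590 to 1501 CPM in the other libraries named C201R. Schwann cell markers (7) summed to 504 to 1029 CPM in C201R and 334 to 1559 CPM in WT libraries. Astrocyte markers (7) summed to 4623 to 5015 CPM in C201R and 4706 to 5044 CPM in WT libraries, and 1 of them, Slc1a3, a glutamate transporter, was called higher by 0.18 ± 0.04 on the log2 scale (SE, edgeR adjusted p = 0.0398). The oligodendrocyte, microglia, endothelial and meningeal lists overlapped between the named groups in their sums and held 0 called genes. Without the 4 libraries highest in muscle markers, Nefl and Nefm were called and Nefh was not (edgeR adjusted p = 0.094).

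By title the neurofilament genes did not pass the test. With the 6 libraries titled C201R set against the 6 titled WT, Nefl averaged 1053 ± 144 TPM in C201R and 1166 ± 138 TPM in WT libraries, Nefm 1179 ± 223 TPM in C201R and 1350 ± 175 TPM in WT, and Nefh 544 ± 95 TPM in C201R and 605 ± 70 TPM in WT (SD, n = 6 each). The groups overlapped for each gene, and 0 of the 5 were called. Log2 differences were -0.19 ± 0.09 for Nefl, -0.24 ± 0.10 for Nefm and -0.20 ± 0.09 for Nefh (SE, edgeR adjusted p = 0.747, 0.719 and 0.754), with 95% intervals that reached -23.0%, -27.4% and -24.1%, and so include the sizes seen by library name. Ina differed by -0.00 ± 0.03 (edgeR adjusted p = 0.999) and Prph by -0.14 ± 0.17 (edgeR adjusted p = 0.920). By title 0% of all genes were called and 0% were called lower by edgeR, with 1202 at an unadjusted p under 0.05 and 18 called by DESeq2, and 0.186% had all C201R libraries below all WT libraries. Of the 10 ratios between members, 0 passed by title (exact permutation test, lowest adjusted p = 0.346).

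The 8 libraries whose labels agree kept the differences of the 3 neurofilament genes. Xist was 552 to 685 CPM in C201R libraries 1, 2 and 3 and in WT library 8. It was at most 0.22 CPM in C201R library 10 and WT libraries 5, 6 and 7. The fit used titled sex, which Xist contradicts in libraries 2, 3, 5, 6 and 8. Sex by Xist and genotype are thus not cleanly separated in these 8 libraries. Nefl was 1001, 909, 940 and 1003 TPM in C201R libraries 1, 2, 3 and 10, against 1226, 1341, 1254 and 1170 TPM in WT libraries 5, 6, 7 and 8. Nefm was 1061, 982, 978 and 1141 TPM in the same C201R libraries, against 1428, 1599, 1439 and 1325 TPM in the WT libraries. For Nefh the values were 496, 451, 461 and 532 TPM in C201R, against 609, 724, 629 and 587 TPM in WT. None of the 3 genes overlapped between the groups; over all 18384 genes tested, 0.158% were called, 0.125% were called lower and 4.57% had all C201R libraries below all WT libraries.

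The log2 differences in these 8 libraries were -0.39 ± 0.03 for Nefl, -0.49 ± 0.05 for Nefm and -0.41 ± 0.05 for Nefh (SE, edgeR adjusted p = 0.00142, 0.00675 and 0.0334). Ina was 210.9, 196.8, 201.1 and 228.9 TPM in the C201R libraries, against 192.3, 202.0, 199.5 and 203.9 TPM in the WT libraries, overlapping, and differed by 0.02 ± 0.04 on the log2 scale (SE, edgeR adjusted p = 0.853). Prph was 59.9, 79.9, 50.8 and 74.7 TPM in C201R, against 85.5, 127.6, 74.5 and 66.4 TPM in WT, also overlapping, and differed by -0.35 ± 0.21 on the log2 scale (SE, edgeR adjusted p = 0.533). Leaving out 1 of the 8 libraries gave Prph values from -0.49 to -0.08, the last without library 1. Without library 1 or without library 7, 1 of the 5 genes was called in this comparison, and with limma on log2 TPM 0 of the 5 were.

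The 2 labels differ only in the 4 disputed libraries. Libraries 11 and 12, titled C201R and named WT, had 1224 and 1241 TPM of Nefl, 1470 and 1444 TPM of Nefm, and 668 and 654 TPM of Nefh. Libraries 4 and 9, titled WT and named C201R, had 988 and 1019 TPM of Nefl, 1150 and 1160 TPM of Nefm, and 517 and 563 TPM of Nefh. The pair titled C201R was thus higher than the pair titled WT for each neurofilament gene, which is the opposite order to that of the 8 other libraries. Ina in the same libraries was 217.5 and 216.0 TPM in the pair titled C201R, against 221.6 and 229.2 TPM in the pair titled WT.

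**Figure D5:**
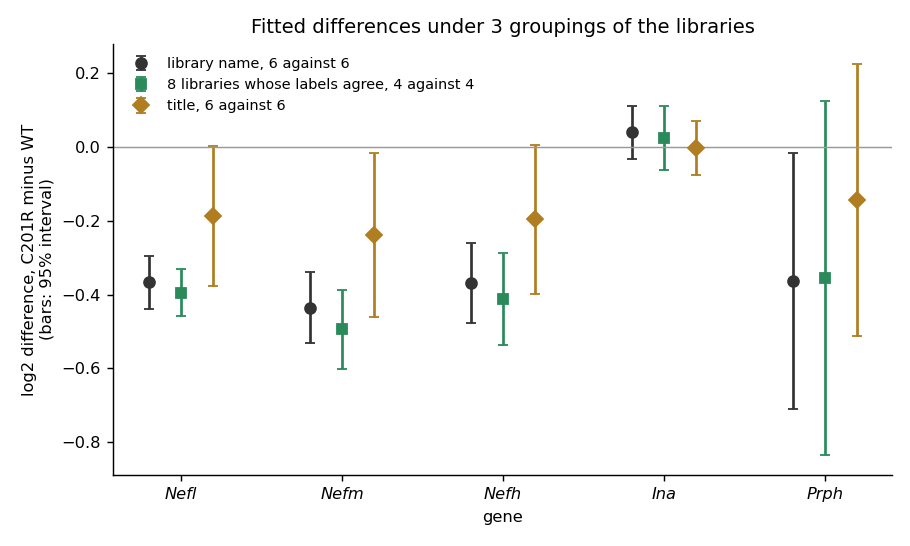
Fitted log2 difference, C201R minus WT (vertical axis; bars give the 95% interval), for each gene under 3 groupings of the libraries: by library name, in the 8 libraries whose labels agree, and by title. Nefl, Nefm and Nefh lie between -0.37 and -0.49 in the first 2 groupings and between -0.19 and -0.24 by title, and Ina lies near 0 in each.

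Within the mt-Atp8 sets, whose 6 libraries each hold 3 named C201R and 3 named WT, a setting chosen after seeing the data, the set with more of that transcript gave -0.39 for Nefl, -0.51 for Nefm and -0.41 for Nefh, each called. These 6 libraries carry the same genotype in both labels. Among them Xist was high in C201R libraries 1, 2 and 3 and, of the WT libraries, in library 8. Sex was not a term in the fit of either set. In the set with less mt-Atp8, 2 of the 5 genes were called by library name, and Nefh missed the threshold at -0.37 ± 0.05 (SE, edgeR adjusted p = 0.0546). The same set by title gave log2 differences of 0.02 for Nefl, 0.03 for Nefm and 0.01 for Nefh, with 0 of 5 called. The split by library number gave 2 called members in libraries 1 to 6, where Nefh had an adjusted p of 0.0506 (edgeR), and 1 in libraries 7 to 12, where Nefl had 0.0543 and Nefh 0.242. The shares of all genes called in these sets of 6 libraries are not given here, so the counts have no background beside them.

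Most genes that act on neurofilaments did not pass the test, by library name or by title. Of 11 genes of kinases, a phosphatase and their regulators that act on the neurofilament tails, 0 were called, and their median log2 difference by library name was -0.05. The 2 with the lowest p were Ppp2ca, the catalytic subunit of protein phosphatase 2A, at 330 ± 5 CPM in C201R and 342 ± 3 CPM in WT libraries (edgeR adjusted p = 0.287), and Gsk3a, a tail kinase, at 132 ± 5 CPM in C201R and 127 ± 2 CPM in WT libraries (edgeR adjusted p = 0.337). Among 9 genes of the motors that carry neurofilaments along the axon, 0 were called, with a median of -0.03; the lowest p values belonged to Kif5c, a kinesin heavy chain, at 908 ± 23 CPM in C201R and 962 ± 25 CPM in WT (edgeR adjusted p = 0.234), and Dync1i1, a dynein intermediate chain, at 122 ± 6 CPM in C201R and 129 ± 4 CPM in WT (edgeR adjusted p = 0.405).

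Of 5 linker genes, 0 were called, with a median of -0.05. The 2 of lowest p were Plec, the plectin gene, at 435 ± 24 CPM in C201R and 476 ± 31 CPM in WT (edgeR adjusted p = 0.362), and Macf1, a spectraplakin, at 674 ± 37 CPM in C201R and 647 ± 27 CPM in WT (edgeR adjusted p = 0.615). Of 6 genes whose proteins are known to bind neurofilament mRNA, 0 were called, with a median of -0.01. Among them Tardbp, the gene of TDP-43, had 173 ± 9 CPM in C201R and 166 ± 12 CPM in WT libraries (edgeR adjusted p = 0.831). These are the levels of the binders' own mRNA, not of their proteins.

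The turnover and chaperone genes were the exception, with 2 of 8 called lower and a median of -0.10. Hspb1, the small heat shock protein Hsp27, ranged from 17.3 to 20.2 CPM in libraries named C201R and from 23.9 to 39.2 CPM in those named WT. The groups did not overlap, and Hspb1 fell by 0.61 ± 0.11 on the log2 scale (SE, edgeR adjusted p = 0.0200). Bag3, a co-chaperone of the small heat shock proteins, ranged from 30.8 to 36.9 CPM in C201R libraries and from 39.4 to 54.6 CPM in WT libraries, and differed by -0.38 ± 0.08 on the log2 scale (SE, edgeR adjusted p = 0.0467). In the 8 libraries whose labels agree neither was called (edgeR adjusted p = 0.0655 for Hspb1 and 0.0921 for Bag3), and by title their adjusted p were 0.709 and 0.733 in the same test.

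Intermediate filament genes of other cell types did not pass. Of 15 listed, 13 were tested and 0 were called, with a median of 0.01. Gfap, the filament of astrocytes, had 1637 ± 162 CPM in libraries named C201R and 1543 ± 108 CPM in those named WT (edgeR adjusted p = 0.734). Nes, the nestin gene, had 31.6 ± 3.3 CPM in C201R and 40.8 ± 7.2 CPM in WT (edgeR adjusted p = 0.244), and Bfsp2, a filament known from the lens, had 11.5 ± 1.6 CPM in C201R and 14.2 ± 1.6 CPM in WT (edgeR adjusted p = 0.282). Gfap was added to those named because it was singled out after its values were seen. By title, 0 genes were called in any of these lists.

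The 3 neurofilament genes varied together across libraries. With each named group's mean removed, the correlation of log2 CPM over 12 libraries was 0.91 between Nefm and Nefh, 0.80 between Nefl and Nefm and 0.71 between Nefl and Nefh, while Ina had -0.04 with Nefl, 0.39 with Nefm and 0.50 with Nefh. These correlations describe libraries that share preparation and sequencing, and Nefl and Nefm share reads.

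Among 10456 genes with a mean of at least 10 CPM, those most like each member in log2 CPM over the 12 libraries were ranked by Pearson correlation, with the difference between the named groups included. Nefl was closest to Slc10a4 (0.985), a transporter-family protein of synaptic vesicles, to Kcnj14 (0.981), a potassium channel, and to Chodl (0.980). For Nefm the closest were Fgf1 (0.980), an acidic fibroblast growth factor, Chat (0.973) and Ahnak2 (0.967), and for Nefh they included Fgf1 (0.978) and Lrsam1 (0.968), a ubiquitin ligase. Of these 7 genes, Lrsam1 was the one not called by library name (edgeR adjusted p = 0.0746), and the other 6 were lower in C201R, from -0.24 for Fgf1 to -1.41 for Chodl on the log2 scale. The genes nearest to Ina were Atp6v1g2 (0.942), a proton pump subunit, Bag6 (0.934) and 9530082P21Rik (0.934), and those nearest to Prph were Serpinb6a (0.963), Anxa2 (0.961) and Fstl1 (0.959), none of them called.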

How the data were processed

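Paired reads came from stranded polyA libraries of whole spinal cord, per the labels' protocols. The submitters' processing notes name Bowtie2 2.2.0 and RSEM 1.2.12. Genome build, annotation and strand setting are not stated in the sources used here. The deposited tables hold RSEM's expected counts and TPM for each gene, with transcript length in bases, per the file headers. Where a read matches more than 1 gene, RSEM gives each a fraction of it.

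Rounded expected counts of the 17765 of 38924 genes kept by filterByExpr were scaled by TMM. They were tested in edgeR 4.0.16 (quasi-likelihood, R 4.3.3), with titled sex as a term, Benjamini-Hochberg adjustment over these genes and a threshold of 0.05. Each SE is the log2 difference over the square root of F. Ratios used deposited TPM with exact permutation tests in Python 3.11.15 with numpy 2.4.6. Alternatives used DESeq2 1.42.0 and limma 3.58.1. The scripts were tested on simulated data.

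The members, gene lists and comparisons were chosen with earlier results of these data known. The text names all 5 members, each list's called genes (of marker lists up to 4) or otherwise the 2 of lowest p, the 2 most abundant motor neuron, sensory ganglion and muscle markers, the 3 genes most like each member, and Gars, except for some that are not reported here. No 2 libraries agreed within sampling noise, as the lowest chi-square per gene over 66 pairs was 5.81.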

Additional observations from a re-analysis of the deposited data

Results flagged for a closer look

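Of 60 groups of libraries examined for a library far from the others, 2 held one, and chance alone flags about 1 in 20 such groups. Nefh stood at 1480 CPM in library 6, against 1229 to 1312 CPM in the other 5 libraries named WT, so the gap to its nearest neighbour took 0.669 of the group's range. Library 6 also had the highest level of sensory ganglion markers, at 94.7 CPM; their part in this value was not tested. Without it the log2 differences of the members by library name kept their direction and 3 members remained called. The ratio of Nefh to Ina was 2.459 in library 9, which is named C201R and titled WT, against 2.292 to 2.350 in the other 5 libraries named C201R.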

How the results depend on the processing

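By library name, Nefl, Nefm, Nefh and Prph were lower in C201R under every alternative run. Of 31 alternatives, the call was lost in 2 for Nefl, 1 for Nefm and 8 for Nefh. In the 8 libraries whose labels agree it was lost in 2, 4 and 10 of 18. The number of the 5 genes called was 3 under RLE scaling, no filter, a filter at a mean of 1 CPM, DESeq2, voom, no sex term, Xist in place of titled sex, library number as a term, mt-Atp8 set as a term and each library left out (3 to 3). It was 2 with limma on log2(TPM + 1) or (TPM + 0.1), in library numbers 1 to 6, in the set with less mt-Atp8, above 10 CPM of ganglion markers and without the 4 libraries highest in muscle, 4 with the ganglion level as a term, 1 in library numbers 7 to 12, and 0 under 10 CPM of ganglion markers. All genes called numbered 335 with DESeq2, 185 with Xist, 235 with library number, 373 with the mt-Atp8 set and 41 with limma on log2(TPM + 1), against 127. All-gene totals by library name are not given in this section for RLE scaling, no filter, the 1 CPM filter, voom or no sex term. Nor are they for log2(TPM + 0.1), each library left out, the ganglion term, or the subsets by library number, mt-Atp8, muscle or ganglion markers. Totals for limma or for each library left out in the 8 libraries whose labels agree are also not given. Member counts under these settings have no background beside them here. In the 8 libraries whose labels agree, 0 members were called with limma on log2(TPM + 1) and 0 on log2(TPM + 0.1), and 1 to 3 with each library left out; all genes called there numbered 259 with DESeq2 and 242 with voom, against 29. By title, 3 members were called in the set with more mt-Atp8, whose labels agree. The cause of these changes was not tested, and the subsets also hold fewer libraries. The mt-Atp8 and ganglion settings were chosen after seeing the data. No paired analysis was possible because each library has a number of its own.

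Many differences near 0 or by title changed sign. Ina turned to -0.0027 by name in the set with more mt-Atp8, and by title to 0.0055 with voom, 0.027 and 0.027 with limma on TPM + 1 and TPM + 0.1, 0.022 with Xist, 0.020 in libraries 7 to 12, 0.0026 without the muscle-rich libraries and 0.025 above 10 CPM of ganglion markers. With each library left out, Ina ran from -0.018 to 0.018 by title and from -0.00396 to 0.048 in the 8 libraries. By title, Nefh turned to 0.012 and Prph to 0.294 in libraries 7 to 12, and Prph to 0.167 without the muscle-rich libraries. In the set with less mt-Atp8 by title, Nefl turned to 0.024, Nefm to 0.025 and Nefh to 0.012.

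Of log2 ratios by name, Nefm over Prph turned to 0.150 in libraries 1 to 6 and 0.165 in the set with less mt-Atp8. Nefl over Prph turned to -0.011 in libraries 7 to 12 and -0.092 in the set with more mt-Atp8, Nefh over Prph to -0.110 there and -9.26e-06 in the 8 libraries, and Nefh over Nefl to 0.062 in libraries 7 to 12. Leaving out each library gave -0.106 to 0.065 for Nefm over Prph, -0.032 to 0.00351 for Nefh over Nefl, -0.030 to 0.141 for Nefl over Prph and -0.030 to 0.140 for Nefh over Prph. The 3 ratios to Ina kept their direction under each alternative, between -0.612 and -0.342, but did not pass in subsets of 6 or 8 libraries. Sets of 6 libraries allow no exact p under 0.05, so they could not pass whatever the values. The 8 libraries allow no exact p below 0.0286 before adjustment over the pairs. These subsets therefore cannot decide whether the ratios differ.

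Of log2 ratios by title, libraries 1 to 6 gave 0.260 for Nefl, 0.113 for Nefm and 0.187 for Nefh over Prph. Libraries 7 to 12 gave 0.034 for Nefm over Nefl, 0.044 for Nefh over Nefl and -0.269 for Ina over Prph, and the 8 libraries gave 0.020 for Nefl over Prph. In the set with less mt-Atp8 the values were 0.00243 for Nefm over Nefl, -0.014 for Nefh over Nefm, 0.036, 0.038 and 0.024 for Nefl, Nefm and Nefh over Ina, 0.023, 0.025 and 0.011 for the same genes over Prph and -0.013 for Ina over Prph. Leaving out each library gave -0.135 to 0.036 for Nefl over Prph, -0.138 to 0.032 for Nefh over Prph, -0.00816 to 0.260 for Ina over Prph and -0.032 to 0.00359 for Nefh over Nefl. Relative to motor neuron in place of neuron markers, Nefl turned to 0.246, Nefm to 0.165, Nefh to 0.235 and Prph to 0.186 by name, against -0.34, -0.43, -0.36 and -0.41; without Calca among the motor neuron markers the values were -0.011, -0.093, -0.023 and -0.072. Prph relative to neuron markers lost its call under 10 of 16 alternatives, besides the 1 that turned its sign, and Ina under 3 of 16.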
